A study of Mus musculus with 7 samples.

Results

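The genes expressed by proliferating C2C12 myoblasts were described from 2 libraries of cells that had received a scrambled siRNA, the control of a knockdown experiment. A gene was taken as expressed where its mean over these 2 libraries was 1 FPKM or more (fragments per kilobase of transcript, scaled to the fragments mapped in the library, so that levels of different genes can be set side by side). This held for 11456 of the 13376 rows of the expression table, or 85.6%, most rows being a single gene. C2C12 is an established mouse line that began as myoblasts of adult leg muscle. The labels call the cells murine myoblasts of control genotype, collected while proliferating. They had been treated with si-scr, so untreated cells are not described here. The series holds 7 samples, of which the libraries of the targeting siRNA and of the RNA pull-down are not compared here.

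Myoblasts are committed muscle precursors that still divide. The basic helix-loop-helix factors Myf5 and MyoD mark the commitment, and they act on DNA as partners of E proteins at short E-box motifs. Id proteins bind E proteins but cannot bind DNA, and so hold back differentiation while cells grow. When growth factors run low, myogenin and the MEF2 factors switch on genes of cell fusion, the neuromuscular junction and the sarcomere, and the cells leave the cell cycle. C2C12 is used for this switch because it can be set off in culture by taking serum away.

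The labels do not say whether the 2 libraries came from separate cultures, so the spread between them may be technical. FPKM carries no read count, so the depth behind each value is unknown and no counting interval can be given. The sums of FPKM were 1515596 and 2466046, and 11 rows over 10000 FPKM took 62.1% and 76.0% of them. Of those 11 rows, 7 were listed at 0 in 1 library, and an exact 0 in such a table can be a failed estimate. The libraries were made from bulk RNA, in which a message at a low level in every cell and a message at a high level in few cells cannot be told apart.

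The median level of an expressed row was 14.3 FPKM, with quartiles at 5.73 and 33.5 FPKM. Of the expressed rows, 4451 (38.9%) lay between 1 and 10 FPKM, 6091 (53.2%) between 10 and 100, 817 (7.13%) between 100 and 1000, and 97 (0.847%) at 1000 or more. Nuclear protein-coding genes made up 10607 of the expressed rows (92.6%), with a median of 15.4 FPKM. Long noncoding RNAs gave 249 rows at a median of 3.06 FPKM, and pseudogenes 237 rows at 4.05 FPKM. Counted from the annotation, 10886 of 21900 RefSeq protein-coding genes (49.7%) were in an expressed row. A further 9923 (45.3%) had no row in the table used here, and their level is not known. Counts of gene lists are read against these shares of all rows and of all protein-coding genes. At the threshold, the nearest rows inside were Ccdc57 (0.915 and 1.09 FPKM in libraries 1 and 2), Prph (1.12 and 0.885) and Gm4262 (0.984 and 1.02). The nearest outside were Lzts1 (0.931 and 1.07), Tbc1d12 (0.893 and 1.11) and Fut4 (0.991 and 1.01). Each of these 6 rows differed between libraries by more than its distance from the threshold, so that their side of it is uncertain.

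The 2 libraries gave nearly the same profile. Across expressed rows Pearson's r on log2(FPKM + 1) was 0.968 and Spearman's rho 0.992, both across genes, which are not independent replicates. The median row was 1.05-fold apart. The difference shrank with level, from 1.15-fold for rows at 1 to 2 FPKM to 1.04-fold at 10 to 100 and 1.03-fold at 100 to 1000 FPKM, and was 1.05-fold at 1000 FPKM or more. Only 78 expressed rows (0.681%) were at least 2-fold apart or at 0 in 1 library, 44 of them under 2 FPKM. Over nuclear protein-coding rows r was 0.998, with 23 such rows, and without the rows over 10000 FPKM it was 0.996.

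**Figure D1:**
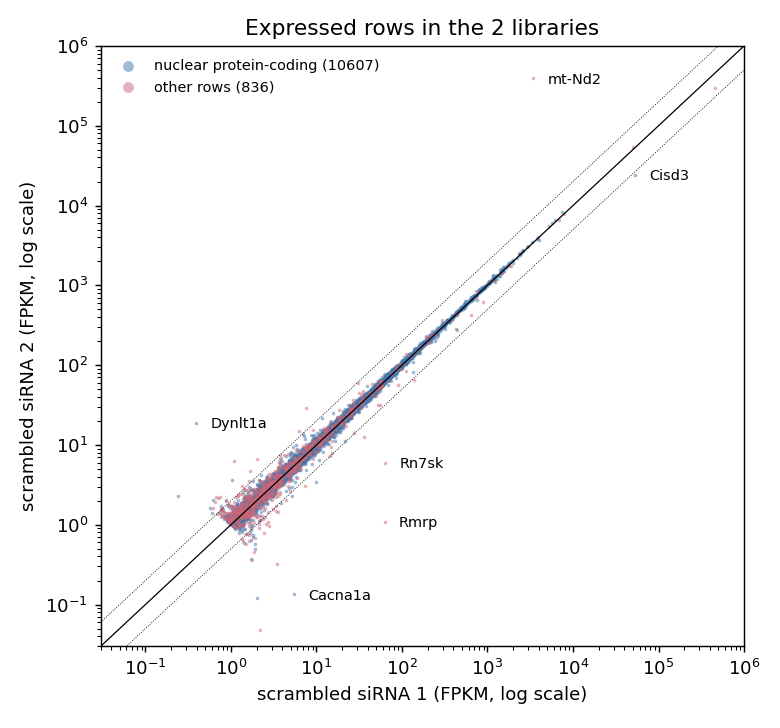
Levels of the expressed rows above 0 in both libraries, library 1 on the x axis and library 2 on the y axis, in FPKM on log scales. The solid line marks equal values and the dotted lines a 2-fold difference. Nearly all rows lie between the dotted lines, and the named rows are far outside them, except Cisd3 at 2.17-fold.

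The largest differences were led by short noncoding or mitochondrial RNAs. The mitochondrial message mt-Nd2, a subunit of respiratory complex I, stood at 3401 and 395110.0 FPKM. Rmrp, the RNA of an endonuclease that processes ribosomal RNA, stood at 62.7 and 1.09 FPKM. Rn7sk, which holds the elongation factor P-TEFb inactive, was at 63.98 and 5.99 FPKM, and Rpph1, the RNA of ribonuclease P, at 3.41 and 0.318 FPKM. These 3 small RNAs were all lower in library 2. Among protein-coding genes, the dynein light chain Dynlt1a was at 0.3900 and 19.1 FPKM, the calcium channel Cacna1a at 5.401 and 0.134, the histone Hist1h2bg at 2.04 and 0.122 and the protease-like Usp50 at 0.239 and 2.31. Of these 4, Dynlt1a and Usp50 were higher in library 2. The 2 other rows among the 10 largest differences merge Rmst or Hotairm1 with predicted genes. Dynlt1a and Hist1h2bg belong to families of near-identical copies, between which reads can be split, so their levels are uncertain.

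Smaller differences ran through whole gene groups. Library 2 was higher in 68.5% of all expressed rows, with a median log2 difference of 0.04. Among the expressed early differentiation genes described further on, 31 of 35 were higher in library 2, with a median of 0.16. Once the libraries were scaled by their median ratio of 1.03, 27 of these 35 were higher (77.1%), against 50% of all expressed rows. The Hox genes stood on the other side, 5 of 15 rows being higher in library 2, or 2 of 15 after scaling, with a median of -0.06. They were not alone there after scaling, when chaperones were higher in library 2 in 6 of 34 rows and cell cycle genes in 16 of 46. Ribosomal proteins were higher there in 76 of 83 rows, or 56 after scaling. With 1 pair of libraries these are descriptions of those libraries, and no cause was tested.

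Messages for the ribosome, iron storage, translation and the cytoskeleton were among the highest. Cisd3, an iron-sulfur protein of mitochondria, had the highest nuclear protein-coding level, at 52612 and 24209 FPKM, but its 2 libraries were 2.17-fold apart. The ferritin light chain Ftl1 followed with 7493 and 8225 FPKM, and the heavy chain Fth1 stood at 3971 and 3694. Both libraries placed Ftl1 above every other nuclear protein-coding gene but Cisd3. The galactose-binding Lgals1 was at 6146 and 6599 FPKM, and the calcium-binding S100a4, known from motile mesenchymal cells, at 5693 and 5964. Eef1a1, which brings aminoacyl-tRNA to the ribosome, stood at 5196 and 5483 FPKM. Next to these, the cyclophilin Ppia stood at 2985 and 3100.4 FPKM, the secreted phosphoprotein Spp1 (osteopontin) at 2533 and 2671, the translationally controlled Tpt1 at 2489.6 and 2534, the glycolytic Gapdh at 2201 and 2171 and the intermediate filament vimentin (Vim) at 1998 and 1913. The same 25 rows were the highest in each library taken alone.

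The other 14 of the 25 were ribosomal proteins. They ran from Rps12 (3896 and 4016 FPKM) through Rplp1 (3784 and 3784), Rpl41 (3351 and 3463), Rpl23a (2880.5 and 3063), Rps24 (2618 and 2810.5) and Rps29 (2572 and 2703) to Rps28 (1748 and 1831). Between Rps29 and Rps28 came Rpl8, Rps15, Rpl10, Rpl32, Rplp0, Rps21 and Rpl35a, with means of 2443 down to 1848 FPKM. Among the 100 highest nuclear protein-coding rows, 61 were ribosomal proteins. All 83 cytosolic ribosomal proteins with a row (of 86 listed) were above 100 FPKM, with a median of 1096 and Rpl29 lowest at 195 and 213. Together they held 17.7% and 18.8% of the FPKM of nuclear protein-coding rows. Many have near-identical pseudogenes, so reads can be split between copies and single levels are uncertain. Of those named as a ribosomal protein with the ending -ps, 35 had expressed rows, the highest being Rps26-ps1 at 1076 FPKM. Pseudogenes under other names, such as Rps3a2 (454 and 456 FPKM), were not counted.

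**Figure D2:**
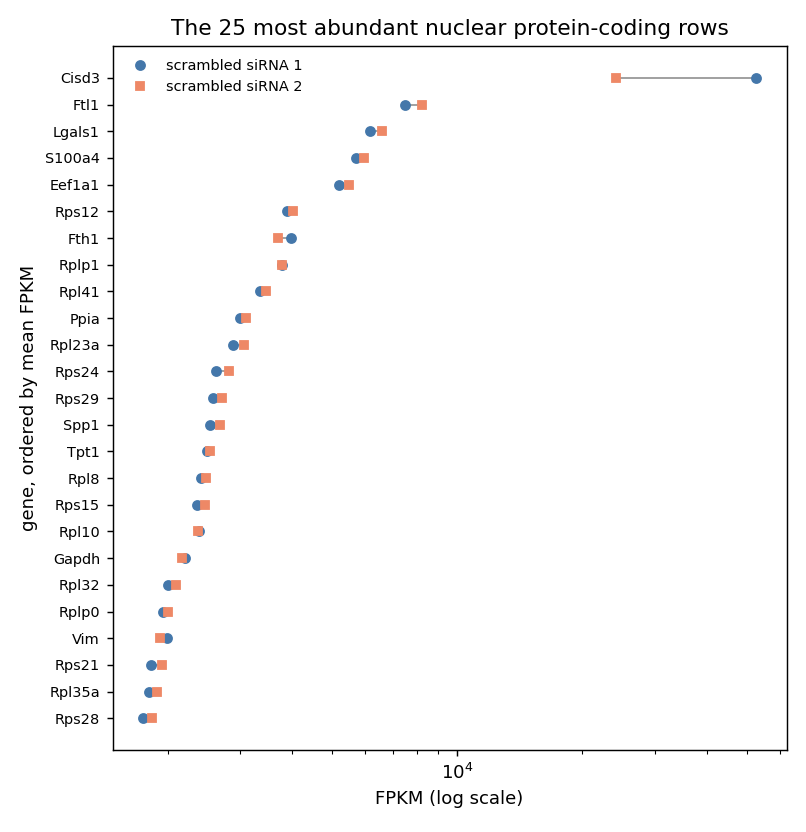
FPKM on a log scale (x axis) of the 25 most abundant nuclear protein-coding rows, ordered by their mean (y axis), with a circle for library 1 and a square for library 2. Cisd3 lies apart from the rest and is the only row whose 2 libraries stand well apart; the other 24 fall from Ftl1 at a mean of 7859 to Rps28 at 1789.7 FPKM.

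Few messages made up much of the total. The 10 highest nuclear protein-coding rows held 16.2% and 11.9% of the FPKM of that class, the 100 highest 36.8% and 33.6%, and the 1000 highest 68.4% and 66.8%. Without Cisd3 the 10 highest held 8.49% and 8.58% and the 100 highest 30.7% and 30.9%, so the gap between libraries came from that row.

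The promoters of the most abundant class were mostly of the CpG-rich kind without a TATA box, the motif that binds TBP. Promoter windows of 300 bases (250 before and 50 after the annotated start) came from RefSeq on GRCm38.p6, and 17492 protein-coding genes had one. The median ratio of observed to expected CpG was 0.228 over 7854 genes with no row, 0.523 over 827 genes under 1 FPKM, 0.735 at 1 to 10, 0.810 at 10 to 100, 0.840 at 100 to 1000 and 0.791 over 61 genes at 1000 FPKM or more. TATAAA, searched on the gene's strand with its first base 40 to 20 bases before the start, was in 2.84% of all windows and in 1.01% of those of expressed genes. At 1000 FPKM or more it was in 3 of 61 windows (4.92%), a higher share than both. Those 3 are shown as the 60 bases before the start, 5′ to 3′ on the gene's strand, with TATAAA in capitals, because they belong to messages named above.
S100a4 (chr3:90603710-90603769, plus strand): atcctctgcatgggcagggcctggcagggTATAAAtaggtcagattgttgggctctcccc
Ppia (chr11:6415807-6415866, plus strand): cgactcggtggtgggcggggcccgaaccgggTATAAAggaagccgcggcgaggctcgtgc
Vim (chr2:13574251-13574310, plus strand): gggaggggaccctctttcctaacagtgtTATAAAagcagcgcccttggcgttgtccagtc

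A C at the annotated start followed by 4 pyrimidines, as in messages whose translation responds to growth signals, was in 14 of 65 ribosomal protein windows (21.5%) and in 2.17% of all windows. At 1000 FPKM or more it was in 7 of 61 (11.5%). Only a match at exactly the annotated start was counted, so the shares depend on that annotation, and a window without a match may still hold the motif nearby. This motif was picked after the shares had been seen, and a match is a description of the letters only.

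Rows other than nuclear protein-coding genes reached the highest values, many of them in 1 library only, so these values are not read as a ranking of abundance. Gm27786 stood at 454325 and 299342 FPKM. Of the 10 highest such rows, 7 were listed at 0 in 1 library. These were the mitochondrial tRNAs mt-Th (0 and 352412 FPKM) and mt-Tl1 (267946 and 0), the predicted genes Gm27483 (0 and 315887), Gm25238 (0 and 210364), Gm22071 (0 and 130945) and Gm23937 (112893 and 0), and Mir1955 (0 and 92189). Another 2, Gm27786 and mt-Nd2, differed between libraries by more than 1.5-fold, and the merged row of mt-Atp6, mt-Atp8 and mt-Co3 differed little between libraries, at 49873 and 54000.2 FPKM. The mitochondrial genome encodes core subunits of the respiratory chain, and its other messages mt-Nd1 (7854 and 7748), mt-Cytb (6777 and 6508), mt-Nd6 (2328 and 2564), the merged mt-Nd4 and mt-Nd4l (1867 and 1726) and mt-Nd5 (1762 and 1732) were all above 1000 FPKM. Far lower were mt-Nd3 (34.5 and 43.04) and mt-Co2 (27.5 and 32.7). mt-Co1 has no row.

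Muscle identity was seen in the myogenic factors, of which Myf5, MyoD and myogenin were all expressed. Myod1 stood at 47.3 and 49.4 FPKM and Myf5, the other commitment factor, at 38.6 and 37.5 FPKM. With Id3 (110.3 and 104 FPKM) they are the markers given for these cells, and all 3 were expressed in both libraries. Myog, the myogenin gene and a driver of differentiation, was higher than both, at 58.03 and 71.7 FPKM, or 64.8 ± 9.64 (SD, n = 2). The ratio of Myog to Myod1 was 1.23 in library 1 and 1.45 in library 2, and that of Myod1 to Myf5 was 1.23 and 1.32. In each library the order was Myog, Myod1, Myf5. The fourth family member, Myf6 (Mrf4), known from later stages, was under the threshold at 0.296 and 0.344 FPKM.

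The MEF2 factors, partners of myogenin on muscle genes, were split. Mef2a was at 33.4 and 35.4 FPKM and Mef2d at 22.5 and 21.5. Mef2c, the member known to rise in differentiating muscle, was at 0.353 and 0.372 FPKM. Mef2b shares its row with 2310045N01Rik, at 24.8 and 29.4 FPKM, and has no level of its own. Of the 8 genes of this list 6 were in an expressed row (75%), counting the merged row of Mef2b, against 85.6% of all rows. With that row included their median was 36.2 FPKM, against 14.3 FPKM over all expressed rows.

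**Figure D3:**
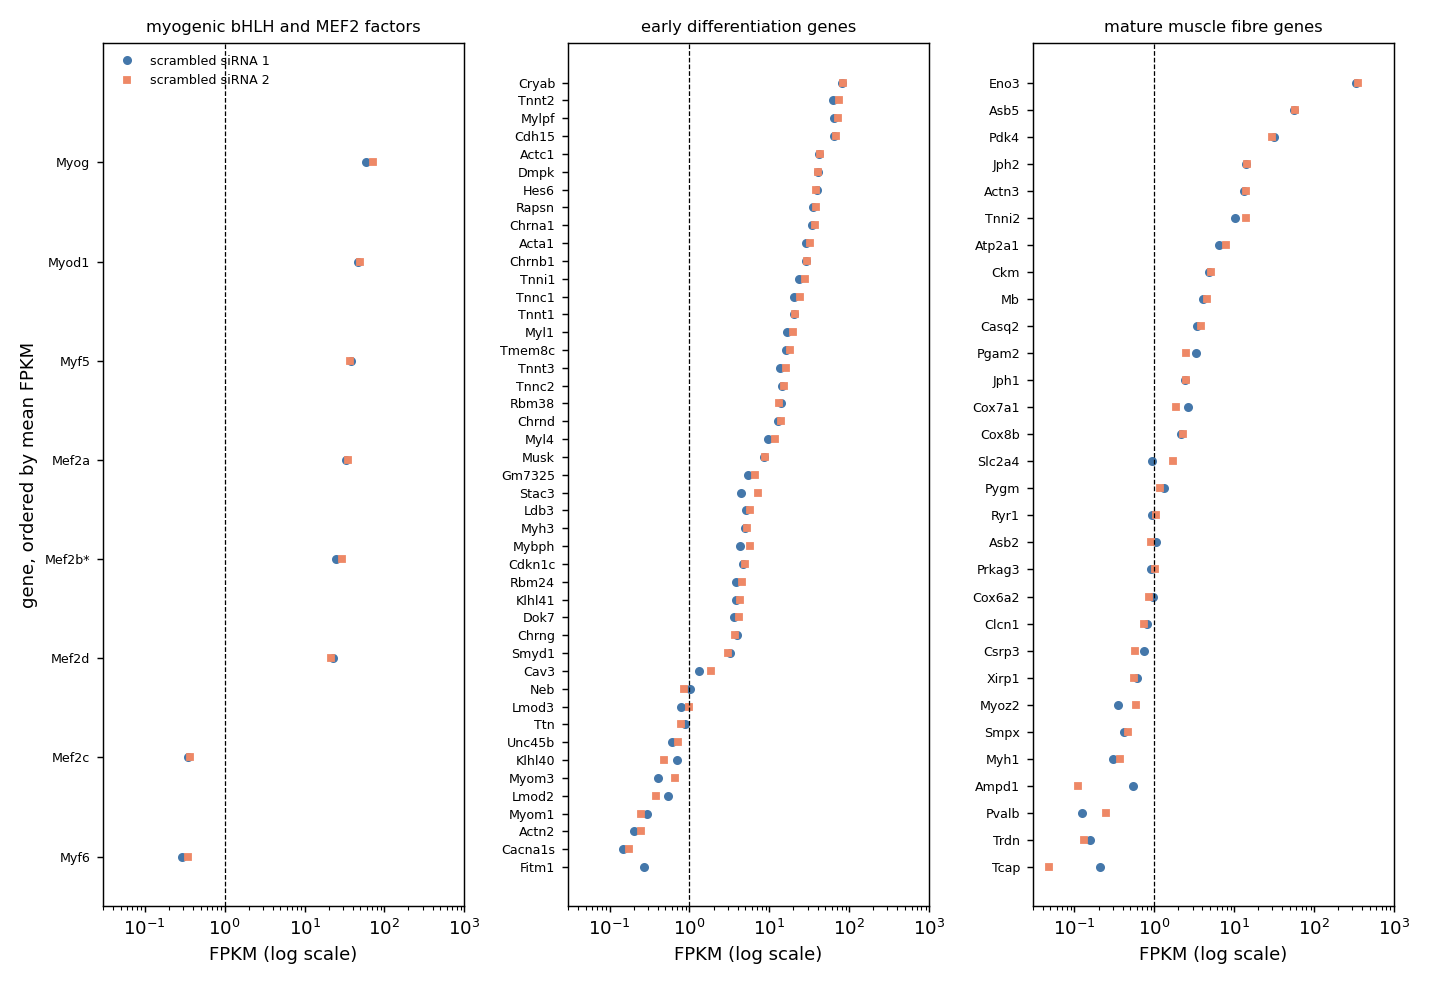
FPKM on a log scale (x axis) in library 1 (circles) and library 2 (squares) of the myogenic factors, the early differentiation genes and the mature fibre genes with a row, each ordered by mean (y axis). The dashed line is 1 FPKM, an asterisk marks a row that names several genes, and a value of 0 has no point. Myog and Mef2c, which are also early differentiation genes, are drawn in the first panel. Most early differentiation genes lie right of the line and about as many mature fibre genes lie left as right of it, with Eno3 as the highest point.

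Upstream specification factors were present without full coverage of the list. Of 38 genes of specification and the myoblast surface, 27 had a row and 26 were expressed. That was 68.4%, against 49.7% of protein-coding genes, at a median of 23.0 FPKM. The homeobox factor Six4, which acts before the myogenic factors, was at 10.3 and 10.8 FPKM, above Six5 (1.05 and 1.23) and Six2 (0.483 and 0.561). The cofactors of these factors, Eya3, Eya4 and Eya1, had means of 22.5, 21.2 and 8.74 FPKM. The eye and muscle homeobox factor Pitx3 was at 3.596 and 3.42 FPKM. Pax3, a factor of embryonic muscle precursors, was low, at 2.07 and 2.12 FPKM. Pax7, the satellite cell factor, has no row, and neither have Eya2, Dach1, Lbx1, Meox1, Meox2, Msc, Tcf21, Barx2, Chodl and Calcr.

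The surface and filament genes of that list were higher. Integrin beta 1 (Itgb1) was at 206 and 212 FPKM, the muscle intermediate filament desmin (Des) at 175 and 172, caveolin 1 (Cav1) at 135 and 136, syndecan 4 (Sdc4) at 79.6 and 79.4 and nestin (Nes), a filament of precursors, at 76.1 and 80.9. M-cadherin (Cdh15), used for contact between myoblasts, was at 64.5 and 67.9 FPKM. These 6 differed by less than 7% between libraries. Dystroglycan (Dag1), the laminin receptor chain Itga7 and the satellite cell receptor Megf10 followed with means of 52.4, 43.6 and 42.7 FPKM. Vcam1, Met, Ncam1, Cdh2, Cxcr4, Cd34 and Sdc3 lay between 10.9 and 30.1 FPKM, and the FGF antagonist Spry1, at 2.69 and 3.76, was lower.

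Inhibitors of differentiation were expressed beside the factors they hold back, and Id3 was above Myog, Myod1 and Myf5 in both libraries. Id1 was at 84.1 and 69.2 FPKM and Id2 at 56.01 and 52.95, beside Id3 at the level given above, which was 2.33 and 2.11 times that of Myod1. Id1 was above Myog in library 1 and below it in library 2, since Id1 was lower and Myog higher there. Id4 has no row. The E proteins were at levels like those of Myod1, with Tcf12 at 54.1 and 56.2 FPKM, Tcf3 at 49.9 and 50.3 and Tcf4 at 36.9 and 40.6. Mdfi, an inhibitor of the myogenic factors, was at 0.103 and 0.357 FPKM, under the threshold.

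Of the Notch pathway, which keeps precursors undifferentiated, Notch3 had the highest receptor level at 27.04 and 29.1 FPKM, then Notch2 (14.3 and 14.8) and Notch1 (7.86 and 7.44). The ligands Dll1 and Jag1 had means of 3.16 and 2.45 FPKM. The targets Hes1 (29.7 and 32.4) and Heyl (13.2 and 15.4) were above Hey1 (1.999 and 2.81), and Hey2 has no row. The repressors of the Zeb and Snail families, Zeb1, Snai2, Zeb2 and Snai1, lay between 15.9 and 20.97 FPKM, and Bhlhe40 and Bhlhe41 at 28.4 and 14.2. Twist2 stood at 18.5 and 14.7 FPKM and Twist1 at 3.38 and 3.53. In all, 23 of the 26 genes of this list were expressed (88.5%, against 49.7% of protein-coding genes), at a median of 20.3 FPKM.

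Early differentiation genes were expressed in part in these cells labelled proliferating. Of 49 listed, 35 were expressed (71.4%, against 49.7% of RefSeq protein-coding genes). Of the 47 with a row that was 74.5%, under the 85.6% of all rows. The expressed members had a median of 14.8 FPKM, near the 14.3 of all expressed rows, and none was above 100. The small heat shock protein Cryab led with 80.8 and 83.3 FPKM. Among the troponins, which make the thin filament respond to calcium, the early isoform Tnnt2 was highest at 62.03 and 75.2 FPKM, then Tnni1 at 23.2 and 27.9, Tnnc1 at 20.5 and 24.02, Tnnt1 at 20.5 and 21.2, Tnnt3 at 13.5 and 16.01 and Tnnc2 at 14.3 and 15.2. Each of these 6 was higher in library 2. Tnnt2 was 4.58 and 4.70 times as high as Tnnt3, the isoform of fast fibres.

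Among the myosin light chains of this list, the regulatory chain Mylpf was highest at 63.97 and 71.9 FPKM, with Myl1 at 16.8 and 19.7 and the embryonic Myl4 at 9.71 and 11.6. The light chain Myl6, listed with the cytoskeleton, was far higher at 1035 and 1105 FPKM. The sarcomeric actins followed, Actc1 of heart and embryonic muscle at 41.5 and 42.4 FPKM and Acta1 of skeletal muscle at 28.7 and 32.03. Actb was 52.9 and 47.7 times as high as Acta1. The embryonic heavy chain Myh3 was low, at 4.897 and 5.26 FPKM, as was Mybph at 4.25 and 5.69. Myh8 and Myh7 have no row.

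Acetylcholine receptor and synapse genes were expressed together. The receptor subunits Chrna1 (34.5 and 36.9 FPKM), Chrnb1 (28.5 and 29.7), Chrnd (12.9 and 14.01) and the fetal Chrng (3.899 and 3.702) were accompanied by Rapsn, which clusters the receptor, at 35.1 and 38.8 FPKM, the receptor kinase Musk at 8.59 and 8.84 and its adaptor Dok7 at 3.57 and 4.198. The lowest of these 7, Chrng and Dok7, had overlapping values. The fusion proteins myomaker (Tmem8c, now Mymk, 16.2 and 18.1 FPKM) and myomixer (Gm7325, now Mymx, 5.37 and 6.54) were both expressed. Hes6, a bHLH factor that favours differentiation, was at 39.3 and 38.5 FPKM, the kinase Dmpk at 40.2 and 40.8, and the RNA-binding Rbm38 at 13.9 and 13.2 and Rbm24 at 3.77 and 4.53. Stac3 (4.36 and 7.22), Ldb3 (5.07 and 5.78), Klhl41 (3.78 and 4.296), Smyd1 (3.23 and 3.06) and Cav3 (1.32 and 1.86), all of assembly of the sarcomere or its membranes, were at the lower end. Cdkn1c stood at 4.67 and 5.01 FPKM.

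The 12 early differentiation genes under the threshold were mainly of later sarcomere assembly. They were nebulin (Neb, 1.02 and 0.854 FPKM), Lmod3 (0.785 and 0.981), titin (Ttn, 0.8801 and 0.784), Unc45b (0.596 and 0.713), Klhl40 (0.707 and 0.477), Myom3 (0.407 and 0.657), Lmod2 (0.531 and 0.381), Mef2c, Myom1 (0.297 and 0.249), Actn2 (0.201 and 0.246), the calcium channel Cacna1s (0.145 and 0.175) and Fitm1 (0.273 and 0). All had lower levels than Cav3 in both libraries. Ttn and Neb, the giant proteins that span the sarcomere, were thus about 1 FPKM where the troponins were at 10 and more.

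E-boxes were frequent in the promoters of these genes. CAGCTG, an E-box form bound by myogenic factors and equal to its own reverse complement, was in the 250 bases before the start in 11.6% of all windows. It was in 15 of 39 windows of early differentiation genes (38.5%), in 12 of 27 of those expressed and 3 of 12 of the others. Cell cycle genes held it in 2 of 37 windows (5.41%) and ribosomal proteins in 4 of 65 (6.15%). The motif was chosen after the shares had been seen, and a match is no evidence of binding. The windows of the 8 such genes with the highest levels are shown because they give the motif's place in these promoters, from 44 bases (Chrna1) to 224 bases (Myl1) before the start. Each is a stretch of 60 bases (59 for Myl1) on GRCm38.p6, 5′ to 3′ on the gene's strand, with CAGCTG in capitals.
Tnnt2 (chr1:135836150-135836209, plus strand): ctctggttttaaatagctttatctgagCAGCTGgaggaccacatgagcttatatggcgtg
Mylpf (chr7:127211530-127211589, plus strand): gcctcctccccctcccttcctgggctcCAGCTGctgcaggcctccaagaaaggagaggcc
Hes6 (chr1:91414177-91414236, minus strand): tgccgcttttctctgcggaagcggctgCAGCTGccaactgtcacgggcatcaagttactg
Chrna1 (chr2:73580350-73580409, minus strand): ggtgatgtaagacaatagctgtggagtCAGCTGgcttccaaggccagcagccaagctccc
Acta1 (chr8:123894964-123895023, minus strand): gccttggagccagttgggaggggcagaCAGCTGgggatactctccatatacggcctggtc
Tnni1 (chr1:135799326-135799385, plus strand): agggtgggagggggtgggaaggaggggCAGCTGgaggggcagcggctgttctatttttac
Myl1 (chr1:66945248-66945306, minus strand): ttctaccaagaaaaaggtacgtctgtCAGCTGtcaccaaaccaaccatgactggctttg
Musk (chr4:58285867-58285926, plus strand): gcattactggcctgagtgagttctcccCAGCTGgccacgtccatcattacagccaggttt

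These windows were also poor in CpG, with a median observed to expected ratio of 0.240 over the 39 genes, against 0.576 over all windows and 0.787 over expressed genes. The cell cycle genes had 0.883.

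Genes of the mature fibre were mostly low where they had a row. Of 45 listed, 16 were expressed (35.6%, against 49.7% of RefSeq protein-coding genes), and of the 30 with a row 53.3%, against 85.6% of all rows. The expressed members had a median of 4.64 FPKM, against 14.3 over all expressed rows. Muscle enolase (Eno3) was the exception, at 335 and 351 FPKM. Next came Asb5 (55.5 and 57.1), the pyruvate dehydrogenase kinase Pdk4 (31.3 and 29.4), junctophilin 2 (Jph2, 14.1 and 14.6), the fast-fibre actinin Actn3 (13.3 and 13.9), the fast troponin Tnni2 (10.2 and 14.04), the calcium pump Atp2a1 (6.38 and 7.97) and muscle creatine kinase (Ckm, 4.85 and 5.105). Pygm, the muscle glycogen phosphorylase, was the lowest expressed member at 1.33 and 1.19 FPKM.

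Of the 14 with a row under 1 FPKM, 4 were within 0.1 FPKM of it, namely the calcium release channel Ryr1 (0.938 and 1.05), Asb2 (1.04 and 0.896), Prkag3 (0.917 and 1.02) and Cox6a2 (0.964 and 0.853). The others were Clcn1, Csrp3, Xirp1, Myoz2, Smpx, the adult heavy chain Myh1 (0.305 and 0.375), Ampd1, parvalbumin (Pvalb, 0.125 and 0.2499), Trdn and Tcap, from 0.778 down to 0.129 FPKM. The adult heavy chains Myh2 and Myh4 and the growth inhibitor myostatin (Mstn) were among the 15 with no row. CAGCTG was in 13 of 32 windows of the mature fibre genes (40.6%), a share like that of the early differentiation genes.

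The cell cycle list was fully represented. All 46 listed genes of replication and mitosis were expressed (100%, against 49.7% of protein-coding genes), with a median of 59.1 FPKM, 12 above 100 and none under 10. The histone variant H2afz was at 725 and 755 FPKM, the microtubule regulator Stmn1 at 260.2 and 296, the mitotic kinase Cdk1 at 250.2 and 264, the ribonucleotide reductase subunit Rrm2 at 253 and 243, the replication clamp Pcna at 211 and 207, topoisomerase Top2a at 183 and 192, Hmgb2 at 161 and 166 and survivin (Birc5) at 153 and 162. Stmn1 was the only one of these 8 to differ by more than 10% between libraries.

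Genes that drive or brake entry into the cycle were expressed side by side. The partner of D cyclins Cdk4 was at 293 and 317 FPKM, the inhibitor p21 (Cdkn1a) at 192 and 195, the p53 antagonist Mdm2 at 149 and 142, p53 itself (Trp53) at 111 and 110.1, cyclin D1 (Ccnd1) at 107 and 107, cyclin D3 (Ccnd3), which is known to rise in differentiation, at 77.4 and 86.9, Myc at 34.7 and 32.8 and Cdkn2d at 31.9 and 33.99. Cdkn1a was thus nearly as high as Pcna and higher than Ccnd1 or Ccnd3. The retinoblastoma gene Rb1 was lowest at 1.91 and 0.502 FPKM, and its 2 libraries lay on both sides of 1 FPKM. Ccnd2, Cdkn2a, Cdkn2b and Mycn have no row.

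The genes of the cytoskeleton list were all expressed (100%, against 49.7% of protein-coding genes), 42 of 53 of them above 100 FPKM. This list also holds Lgals1, S100 proteins and annexins, which are not filament proteins. Beside Lgals1, S100a4 and Vim, the cytoplasmic actins Actg1 (1647 and 1663 FPKM) and Actb (1520.0 and 1527) were near each other, at a ratio of 1.08 and 1.09. S100a6 stood at 1540.3 and 1682, the actin-sequestering thymosin Tmsb10 at 1482 and 1570.4 and the alpha tubulin Tuba1b at 1449 and 1424. Cnn1, a calponin of smooth muscle, was lowest at 6.46 and 6.26 FPKM. Actins and tubulins have near-identical copies, so their single levels are uncertain. The whole list held 6.25% and 6.61% of nuclear protein-coding FPKM. Lgals1, the S100 proteins and the annexins are part of that share, so the share of the filament genes alone was smaller.

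Translation factors (40 of 41 expressed, or 97.6%, against 49.7% of protein-coding genes, median 174 FPKM) held 3.16% and 3.34% of nuclear protein-coding FPKM. After Eef1a1 and Tpt1 came Eif5a (1045 and 1058), Eef2 (892 and 902), the helicase Eif4a1 (894 and 896), the poly(A)-binding Pabpc1 (747 and 770.2), Naca (679 and 739.6) and Eef1g (635 and 664), with Eif5a2 lowest at 3.76 and 4.23 FPKM. Chaperones (34 of 37 expressed, or 91.9%, against the same 49.7%, median 247 FPKM) held 2.27% and 2.34%. After Ppia they were led by Hsp90ab1 (1552 and 1528) and Hspa8 (1393 and 1326), then Hspe1, Hspd1, Hsp90aa1, the chaperonin subunit Cct5 and Hsp90b1, with means of 571 to 440.4 FPKM. The stress-inducible Hspa1a was at 1.14 and 0.984 FPKM, while its paralog Hspa1b was higher, at 13.1 and 10.3. The muscle small heat shock genes Hspb3 (0.276 and 0.241) and Hspb7 (0.295 and 0.209) were under the threshold.

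Glycolytic genes were expressed for 28 of 35 (80%, against 49.7% of protein-coding genes). After Gapdh came pyruvate kinase (Pkm, 1178 and 1166 FPKM), Eno1 (908 and 926), Ldha (678 and 711), Aldoa (612 and 621), Pgk1 (489 and 506), Pgam1 (407 and 409) and Tpi1 (341 and 369). Eno1, the general enolase, was 2.71 and 2.64 times as high as the muscle isoform Eno3. The brain aldolase Aldoc was under the threshold at 0.777 and 0.744 FPKM, and the insulin-responsive transporter Slc2a4 was the lowest expressed member at 0.928 and 1.705.

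Matrix genes were widely expressed as well. Of 57 listed 50 were expressed (87.7%, against 49.7% of protein-coding genes), with a median of 35.2 FPKM and 16 above 100. Of the 52 with a row that was 96.2%, against 85.6% of all rows. The matrix protein Sparc was at 701 and 752 FPKM, the type I collagen chains Col1a2 at 648 and 702 and Col1a1 at 483 and 494, biglycan (Bgn) at 621 and 638, the collagen chaperone Serpinh1 at 501 and 535, Col3a1 at 415 and 433, Serpinf1 at 313 and 318 and Timp1 at 251 and 252. Col1a2 was 1.34 and 1.42 times as high as Col1a1. Loxl2 was the lowest expressed member at 2.48 and 2.49 FPKM, and Igfbp3 (0.442 and 0.649) and Fbn2 (0.421 and 0.427) were under the threshold. Fn1, Lum, Eln, Lama4 and Col15a1 have no row. Integrins, the receptors for this matrix, were expressed for 14 of 26 (53.8%), near the 49.7% of all protein-coding genes, with Itga5 (55.1 and 58.5 FPKM), Itga6 (53.00 and 54.8) and Itga7 after Itgb1.

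Among growth factor ligands, 35 of 51 were in an expressed row (68.6%, against 49.7% of protein-coding genes), only 1 of them above 100 FPKM. The follistatin-related Fstl1 was at 117 and 128 FPKM, Csf1 at 80.8 and 77.5, the BMP antagonist Grem1 at 75.96 and 74.6, Vegfa at 49.7 and 55.9, Cxcl12 at 45.2 and 45.4, Ccl2 at 40.3 and 35.98, Igf2, an autocrine factor of differentiating myoblasts, at 28.7 and 31.3 and Tgfb1 at 31.5 and 28.2. Fgf21 was the lowest expressed at 1.39 and 1.73. Fgf1, Bmp4, Wnt4 and Il6 were under the threshold, as was Igf1 at 0.332 and 0.573 FPKM, so Igf2 was 86.4 and 54.7 times as high as Igf1. Mstn, Wnt5a and Bmp2 were among the 11 with no row.

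Of 46 receptors 37 were in an expressed row (80.4%, against 49.7% of protein-coding genes). Their median was 10.6 FPKM, against 14.3 over all expressed rows. Axl led with 107 and 107 FPKM, then Fgfr1 (72.5 and 74.9), the Hedgehog transducer Smo (39.9 and 41.4), Pdgfrb (40.3 and 40.3), Cdon (33.5 and 34.4), which favours myogenesis, Acvr1 (33.6 and 33.7) and Bmpr1a (30.2 and 29.3). Fgfr2 has only a row shared with Ctbp2 (25.8 and 26.6). Fzd4 was the lowest expressed at 1.07 and 1.12 FPKM, and Erbb3, Fzd8, Fgfr3 and Acvr2b had means of 0.896 to 0.386. Pdgfrb was 12.8 and 12.3 times as high as Pdgfra (3.14 and 3.29 FPKM).

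Whether the positional Hox genes had a row differed by cluster. Hox genes lie in 4 clusters and are used along the body axis and limb in the order of their numbers. All 11 Hoxa and all 9 Hoxc genes had a row, and 9 and 8 of them were in an expressed row, merged rows included. Over all 39 Hox genes listed that was 43.6%, near the 49.7% of protein-coding genes. Of those with a row it was 85%, near the 85.6% of all rows. None of the 10 Hoxb and 9 Hoxd genes had a row, so the levels of these 2 clusters are not known. In the Hoxa cluster the levels were higher at numbers 9 to 11, with Hoxa9 at 13.9 and 13.3 FPKM, Hoxa10 at 22.8 and 25.4 and Hoxa11 at 13.7 and 14.1, against Hoxa7 at 8.38 and 8.12 and Hoxa5 at 2.28 and 2.13. Hoxa6 and the merged row of Hoxa2 and Hoxa3 had means of 1.25 and 1.55 FPKM. Hoxa13 (0.9402 and 0.8604) and Hoxa4 (0.787 and 0.599) were under the threshold.

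In the Hoxc cluster the row that merges Hoxc10 and Hoxc5 was highest, at 48.4 and 49.5 FPKM, and the share of each gene in it is not known. Hoxc11 was at 19.2 and 18.3, Hoxc6 at 8.67 and 8.003, Hoxc13 at 8.18 and 7.75, Hoxc9 at 5.69 and 6.33, Hoxc4 at 4.38 and 4.18 and Hoxc8 at 1.03 and 1.002 FPKM. Hoxc12 was at 1.04 and 0.857, its libraries on both sides of 1 FPKM. The values of Hoxc13 and Hoxc6 overlapped, as did those of Hoxa9 and Hoxa11.

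**Figure D4:**
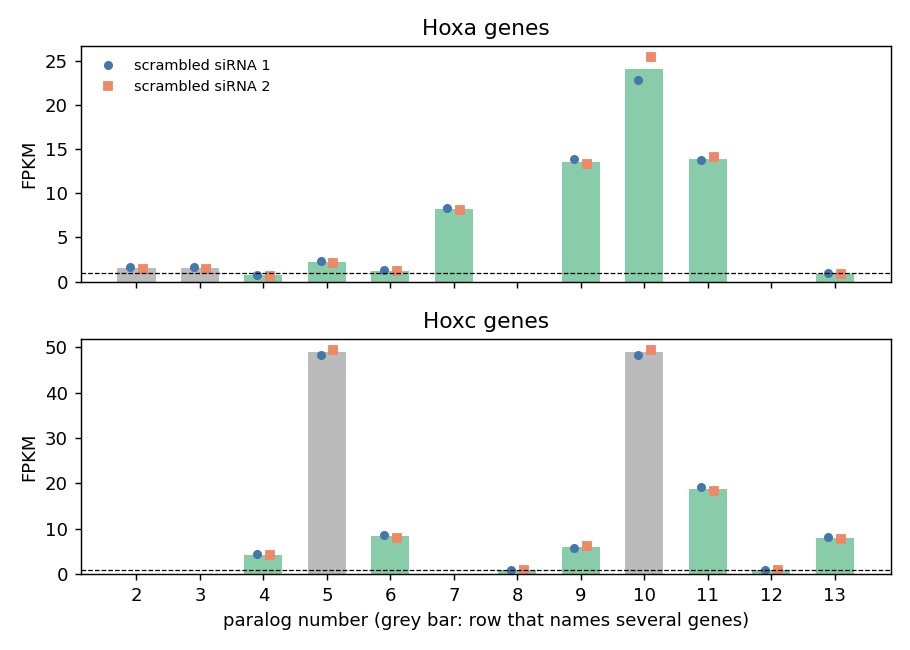
Level in FPKM (y axis, linear) of the Hoxa genes (upper) and Hoxc genes (lower) by paralog number from 2 upward (x axis). Bars are means of the 2 libraries, circles library 1, squares library 2, grey bars rows that name several genes, and the dashed line 1 FPKM. In both panels the tallest bar stands at number 10; in the Hoxc panel it is the same row as the grey bar at 5.

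Other factors of limb and axis were expressed for 21 of 33 (63.6%, against 49.7% of protein-coding genes). The limb mesenchyme factors Prrx2 (36.6 and 39.3 FPKM) and Prrx1 (24.2 and 24.1) were accompanied by Meis2 (22.8 and 22.5), Shox2 (17.6 and 19.9), a row of Pbx2 and Gpsm3 (14.7 and 14.97) and Pbx3 (9.18 and 9.31). Alx1 was the lowest expressed at 1.46 and 1.29 FPKM and Tbx2 under the threshold at 0.361 and 0.339. Tbx4 and Pitx1, hindlimb factors, and Tbx5, a forelimb factor, have no row.

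Programmes of other tissues were mostly without a row, with single genes standing out. A missing row is not read as a level of 0, and the counts are read beside the 49.7% of all protein-coding genes. None of 10 hepatocyte and gut markers had a row. Of 10 endothelial markers only Eng had a row, at 0.553 and 0.573 FPKM, and of 10 pluripotency markers only Dppa5a, at 0.8904 and 0.202. Of 16 blood and immune markers 4 were expressed, the highest being Cd14 at 7.48 and 6.94 FPKM, with Epor, Cd68 and Hba-a1 under 2 and Cd74 at 0.137 and 0.0303. Of 10 glia markers only Mbp, at 1.76 and 1.63 FPKM, passed. Of 11 epithelial markers Krt14 (21.2 and 21.7 FPKM) and Krt19 (2.77 and 2.64) passed and Krt8 was at 0.0993 and 0.143. Of 12 neuron markers Stmn2 (53.5 and 59.2 FPKM), Map2 (18.2 and 16.4), Tubb3 (10.4 and 11.2) and Nefm (2.77 and 2.56) were expressed. Among cardiac markers Gata4 was at 9.79 and 9.39 FPKM and the row of Tnni3 and Dnaaf3 at 1.33 and 1.28.

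Genes of related mesenchymal fates were expressed in part, with counts of short lists that are read beside the 49.7% of all protein-coding genes. The bone gene list had 6 of 10 expressed, with Spp1 among the highest messages of all, the master regulators Runx2 at 16.5 and 17.5 FPKM and Sp7 at 4.36 and 4.21, and Phex, Dmp1 and Bglap2 with means of 5.75 to 2.25. The tendon factor scleraxis (Scx) was at 31.1 and 30.8 FPKM and Fmod at 1.72 and 1.55. The cartilage factor Sox9 was at 12.9 and 13.05, and Matn3 at 0.541 and 0.421. Of 12 fat markers Pparg (11.4 and 10.2 FPKM), Lpl (3.39 and 3.28) and Cebpa (3.03 and 2.98) were expressed and the other 9 have no row.

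Smooth muscle genes gave 6 of 10 expressed, led by smooth muscle actin (Acta2) at 442 and 445 FPKM, with Tagln at 90.7 and 92.6, Actg2 at 55.4 and 53.8, Smtn at 19.4 and 21.5 and Synpo2 at 9.16 and 8.52, while Mylk (0.678 and 0.788) and Lmod1 (0.5303 and 0.556) were under the threshold and Myh11 and Myocd have no row. The 6 expressed were 60% of the list, against 49.7% of protein-coding genes, and 75% of its members with a row, against 85.6% of all rows. Acta2 was 10.7 and 10.5 times as high as Actc1. Of 12 fibroblast markers 8 were expressed (66.7%, or 88.9% of those with a row). Among them were Ly6a at 102 and 102 FPKM, Twist2, Dcn at 7.38 and 8.297 and Gli1 at 1.51 and 1.42. Dpt was at 0.179 and 0.189 FPKM, and Thy1, Lum and Fap have no row.

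**Figure D5:**
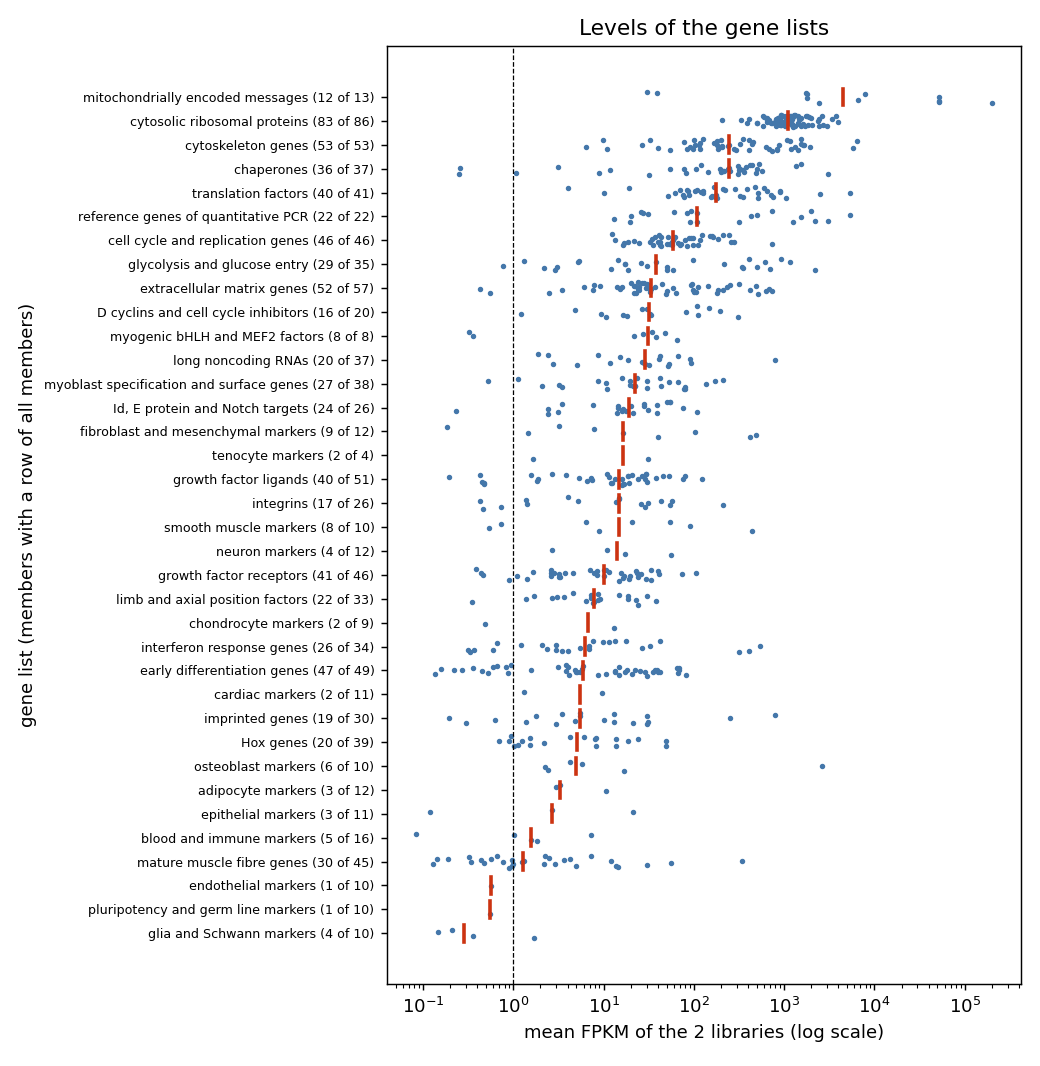
Mean FPKM of the 2 libraries on a log scale (x axis) for each member with a row of each gene list (y axis, ordered by median, with the number of members with a row of all members). Points are genes, red marks the list's median and the dashed line 1 FPKM. The mitochondrial, ribosomal and cytoskeleton lists lie at the top, and the endothelial, pluripotency and glia markers at the bottom, where most members have no row and so no point. The medians of the fibroblast, tenocyte, smooth muscle and neuron markers lie in the middle, above those of the early differentiation and mature fibre genes. These medians leave out members with no row, so the lists are not ranked by them. Only 4 of 12 neuron and 2 of 4 tenocyte markers had a row, against 47 of 49 early differentiation genes.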

How the data were processed

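Per the labels' protocols, the library kit was for mRNA and kept strand. The values in the deposited table are FPKM, which the authors made. The submitters' processing notes name the build mm10 and, with no versions, the tools Cuffdiff, TopHat2, BWA, Bowtie2, Trimmomatic and CASAVA. Only the 2 scrambled siRNA columns were used, except that the lowest row maximum over the 4 siRNA libraries, 0.307 FPKM, was read from all. There were 0 sample columns without a label. Rows that merge genes (325, of which 287 expressed) were kept, and a merged row is not the level of 1 gene. Of 13376 rows 12676 (94.8%) matched RefSeq on GRCm38.p6, whose coordinates mm10 shares. Mitochondrially encoded messages were left out of the shares of nuclear protein-coding FPKM.

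Values were means and SDs of 2 libraries, with a pseudocount of 1 for log2 correlations. No comparison of groups was made and no p-value computed, so no test applies. The genes named are the 25 highest protein-coding and 10 highest other rows, the 10 largest differences between libraries, 3 rows on each side of the threshold, all members of the muscle factor, Id, specification, early differentiation and Hox lists, and of other lists the 8 highest, the lowest expressed and those under 1 FPKM. The remainder were chosen after their values were seen. The 37 gene lists (973 genes) and this rule were chosen with earlier results of these data known. The first RefSeq promoter window of each gene was used (any window as an alternative). The CAGCTG and pyrimidine motifs were picked, after seeing the data, from several that were looked at. Planned protein lengths were not analysed here. Some genes that the rule names are not reported here. The scripts were tested on simulated data. Alternatives were other thresholds, pseudocounts, filters and scaling, and each library left out. Scripts ran in Python 3.11.15 with numpy 2.4.6 and pandas 2.3.3, and figures were drawn with matplotlib 3.10.9.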

Additional observations from a re-analysis of the deposited data

How the results depend on the processing

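The number of expressed rows was 12325 at 0.5 FPKM, 10510 at 2, 8922 at 5 and 11282 with 1 FPKM in each library, and 11424 to 11452 with 1 library left out. List members in expressed rows, 710 in all, went from 738 at 0.5 FPKM to 611 at 5. Of 222 list counts under alternatives, 15 moved by over 1.5 times, all at 0.5, 2 or 5 FPKM; at 5 FPKM mature fibre genes fell to 7 of 45 and Hox genes to 10 of 39. Pearson's r across expressed rows went from 0.968 to 0.978 over all rows, to 0.946 at a mean of 5 FPKM or more, and, both chosen after seeing the data, to 0.996 without rows over 10000 FPKM and 0.998 over nuclear protein-coding rows. Rows at least 2-fold apart numbered 349 over all rows, 18 at a mean of 5 FPKM or more and 23 over nuclear protein-coding rows. The share of the 100 highest messages, 35.2% as a mean of both libraries, was 33.6% to 36.8% with 1 library left out, 78.3% over all rows, 52.9% with mitochondrially encoded messages and 30.8% without Cisd3, the last 2 chosen after seeing the data. With any promoter window of a gene, CAGCTG was in 13.8% of all genes and 38.5% of early differentiation genes. The depth of the libraries is unknown, so the precision of low values rests on 2 libraries. No paired analysis was possible because only 1 group was described and the result comes from no test.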

Other observations

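Genes often used as references in quantitative PCR spanned a wide range in these cells. All 22 listed were expressed, from Eef1a1, Ppia, Gapdh, Rplp0 and Actb at the levels given above to Tbp (18.2 and 21.4 FPKM) and Csnk2a2 (13.01 and 13.4). The row of Rpl13a and Flt3l stood at 1158 and 1346 FPKM, Tubb5 at 740.2 and 728 and Ywhaz at 423 and 431. Chosen after their values were seen, Gusb (30.8 and 30.8) and Sdha (93.6 and 93.6) differed least between libraries among those reported here.

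Among long noncoding RNAs, 20 of 37 (54.1%) were in an expressed row. These were all that had a row (100%, against 85.6% of all rows). The row of H19 and its microRNA Mir675 stood at 728 and 843 FPKM, far above the rows that merge Gas5 (86.1 and 98.1), Xist (88.2 and 93.2) and Snhg5 (68.5 and 64.1) with small or predicted RNAs. Snhg12 (55.2 and 52.2 FPKM), Sra1 (49.4 and 52.8), Pvt1 (52.4 and 31.6) and Neat1 (35.1 and 47.3) followed, the Snhg12 and Pvt1 rows being merged ones. The row that names Mir31 together with a locus that has no gene symbol was at 13.4 and 15.6 FPKM. Imprinted genes were in an expressed row for 16 of 30 (53.3%), near the 49.7% of protein-coding genes. Of those with a row it was 84.2%, against 85.6% of all rows. After H19 came Gnas (256 and 248 FPKM), Peg3 (30.4 and 31.5), Impact (30.9 and 29.7) and Igf2. Mest (21.7 and 21.1), Sgce (13.1 and 13.2) and Peg10 (13.8 and 12.4) followed, and Nnat was the lowest expressed at 1.23 and 1.54. Mkrn3, Plagl1 and Grb10 were at 0.623, 0.297 and 0.195, and Meg3, Dlk1 and Rtl1 were among the 11 with no row.

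Interferon response genes were in an expressed row for 21 of 34 (61.8%, against 49.7% of protein-coding genes). Of those with a row it was 80.8%, against 85.6% of all rows. The membrane proteins Ifitm3 (514 and 556 FPKM) and Ifitm2 (389 and 426) and the MHC light chain B2m (313 and 317) were above 300, and Ifitm1, H2-D1, Irf1, Isg15 and H2-K1 lay between 13.3 and 42.03 FPKM. Ifih1 was the lowest expressed at 1.31 and 1.105, while Tap1, Irf7, Ifit3, Rsad2 and Psmb8 had means of 0.663 to 0.315 FPKM. Mx1, Oas1a and Usp18 were among the 8 with no row.

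Of 966 protein-coding genes on the X chromosome 343 were expressed (35.5%), against 10543 of 20665 on autosomes (51.0%). The gap lay in genes with no row, whose level is not known: 385 X-linked and 11592 autosomal genes had a row, and of these 89.1% and 91.0% were expressed. The median level of expressed genes was 15.7 FPKM on both. None of 256 genes on the Y chromosome had a row.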
